A study of Cucumis melo with 27 samples.

Results

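Transcript levels of a pair of ripening regulators, CmNAC-NOR (MELO3C016540.2) and CmCNR (MELO3C002618.2), were followed in melon (Cucumis melo) leaf and fruit. Both genes were taken by their IDs, as 2 rows of the 25200 genes listed in each of 27 count files. The files carry IDs without names, and the names were given for these IDs from outside the files. The study sampled fruit of the cultivars TTDV and F39 at 4 stages, 20-25, 30-35, 40 and 45 days (d) past flowering, and F39 leaf at an age of 14 d. All plants grew in the field, and each of the 9 groups held 3 libraries. Nothing in the labels says that replicate libraries are separate plants, so the p-values measure the spread between these libraries, which may be technical. The tissue labels could not be checked against marker genes, because no gene in the files has a name.

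CmNAC-NOR encodes a NAC-domain transcription factor. Its tomato counterpart, NON-RIPENING (NOR), is needed for normal ripening, and in melon CmNAC-NOR underlies a locus that changes whether and when a fruit ripens with a burst of ethylene. CmCNR is named after tomato COLORLESS NON-RIPENING (CNR), an SBP-box transcription factor. In tomato an inherited methylation change at the CNR promoter leaves fruit pale and unripe.

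Library numbers stand both in the sample titles and in the names of the deposited files, and 12 of the 27 libraries carry a file number other than their own. In the text each file goes with the title that has its number. For CmNAC-NOR tests and group means and for CmCNR counts, the result as attached in GEO is given too where it differs. For leaf, F39 up to 40 d and TTDV at the last stage, 15 libraries in all, both ways give the same files. Libraries 10, 11 and 12 are TTDV 20-25 d by number and attached to F39 45 d. Libraries 13, 14 and 15 are TTDV 30-35 d by number and attached to TTDV 20-25 d. Libraries 16, 17 and 18 are TTDV 40 d by number and attached to TTDV 30-35 d. Libraries 59, 60 and 61 are F39 45 d by number and attached to TTDV 40 d. Total counts per library ran from 6025615 to 28731038. By number, libraries 59 to 64 were the 45 d fruits of both cultivars, so that this block of numbers and that stage cannot be told apart.

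CmNAC-NOR was far higher in fruit than in F39 leaf, the only other tissue sampled, where it was close to undetected. Its level is given in CPM (a gene's counts scaled to the total of its library). In the 9 libraries of F39 fruit from 20-25 to 40 d it had a lowest value of 49.8, a median of 501.9 and a highest value of 827.5 CPM. In F39 leaf it had 2.56, 0.111 and 0.522 CPM, from 33, 2 and 15 counts. The counting intervals of these leaf values (exact Poisson, 95%) were 1.76 to 3.59, 0.0134 to 0.401 and 0.292 to 0.861 CPM, so that leaf library 19 lay above both others by more than counting error. The lowest of all 24 fruit libraries, at 30.6 CPM, stood 11.98-fold above the highest leaf library, and the groups did not overlap. This margin depends on scaling. In CPM of TMM-scaled library sizes the same 2 libraries had 23.5 and 4.23, still without overlap. How many other genes separate groups of libraries in this way was not counted, here or in the comparisons below.

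By edgeR's quasi-likelihood test, with p-values adjusted over 15130 genes by the Benjamini-Hochberg method, CmNAC-NOR was higher in F39 fruit of 20-25 to 40 d than in leaf, with a log2 fold change of 7.27 (SE 0.97) and an adjusted p of 1.99e-06. That is 154-fold, with a 95% interval of 38.5 to 619-fold, and exceeded the fold change of 98.9% of the genes tested. Fruit and leaf differed in much of the transcriptome, with 52.8% of genes called at an adjusted p under 0.05 and a median log2 fold change of 0.088. Without leaf replicate 1, which held the 33 counts, the log2 fold change was 8.72. In bulk tissue, fewer cells that express a gene and less of its RNA per cell cannot be told apart.

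**Figure D1:**
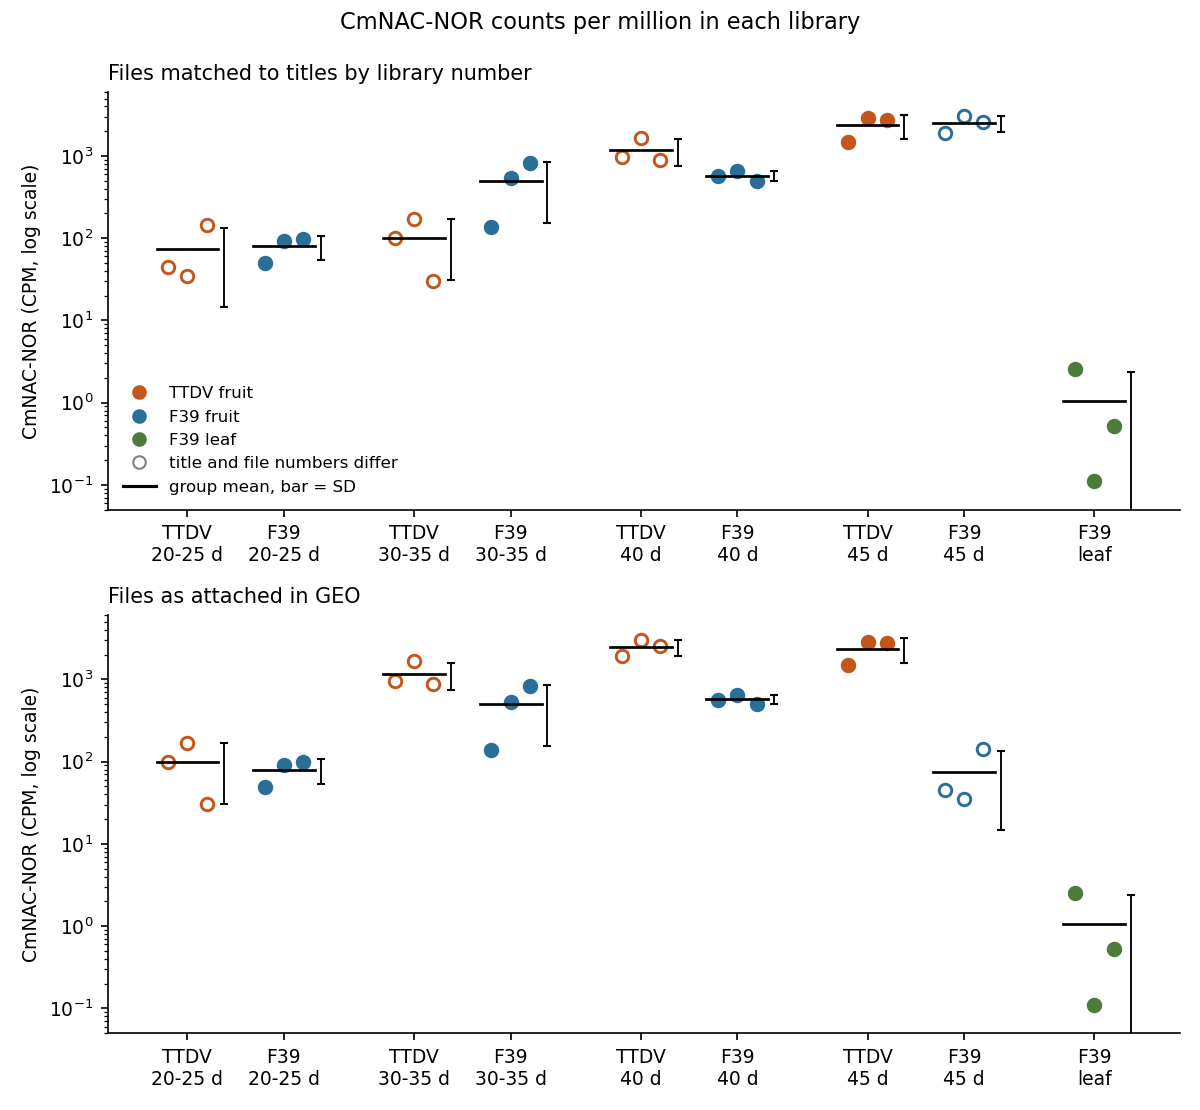
CmNAC-NOR in CPM (log axis) in each of 27 libraries, with points for libraries, a line for the group mean and a bar for the SD (n = 3; the leaf bar runs below the axis). The upper panel matches files to titles by library number and the lower panel keeps the attachment in GEO; open points mark the 12 libraries whose numbers differ. In both panels leaf lies below all fruit, at 0.111 to 2.56 CPM, and TTDV at 45 d lies at 1489 CPM or more, whereas F39 at 45 d is high by number and low as attached.

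In F39 fruit CmNAC-NOR rose between 20-25 and 40 d. At 20-25 d it had 49.8, 91.9 and 98.7 CPM. At 30-35 d it had 138.2, 534.1 and 827.5 CPM, and at 40 d it had 569.5, 651.7 and 501.9 CPM. At 45 d, by library number, it had 1913, 3022 and 2561 CPM. In CPM the 20-25 d libraries lay below all libraries of the other stages, the 30-35 d range enclosed that of 40 d, and the 45 d libraries lay above all others of F39. As attached in GEO, the F39 45 d libraries instead had 45.3, 34.9 and 143.3 CPM, below the whole 40 d group.

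Between 20-25 and 40 d, where titles and attachment agree, the rise in F39 was 8.6-fold with a 95% interval of 2.69 to 27.5-fold. It was a log2 fold change of 3.10 (SE 0.81, edgeR adjusted p = 0.00845), in a comparison that called 26.1% of genes. CmNAC-NOR kept its call in each of 6 refits without 1 library, with log2 fold changes of 2.83 to 3.32. The group means were 574.4 ± 75.0 CPM at 40 d and 80.1 ± 26.5 CPM at 20-25 d (SD, n = 3 each). The step from 20-25 to 30-35 d alone gave a log2 fold change of 2.75 (SE 0.80, edgeR adjusted p = 0.043), with 5.87% of genes called. That call was lost without replicate 1, 2 or 3 of 20-25 d (log2 fold changes of 2.42, 2.89 and 2.85) and without replicate 2 or 3 of 30-35 d (2.48 and 2.35), with edgeR adjusted p between 0.10 and 0.179. It was also lost in 5 of 7 fits of the same libraries with other settings. The 3 libraries of 30-35 d lay above the 3 of 20-25 d.

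Between 30-35 and 40 d CmNAC-NOR did not pass the test in F39. Its log2 fold change of 0.36 had a 95% interval of -1.19 to 1.91 (edgeR adjusted p = 0.89), with 0.74% of genes called. The means were 574.4 ± 75.0 CPM at 40 d and 499.9 ± 345.9 CPM at 30-35 d (SD, n = 3 each). The 3 libraries of 30-35 d differed from each other by 5.99-fold, against 1.298-fold at 40 d.

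From 40 to 45 d in F39 the result rests on which files are taken. By library number the means were 2498 ± 557 CPM at 45 d and 574.4 ± 75.0 CPM at 40 d (SD, n = 3 each), without overlap. The log2 fold change was 1.87 with a 95% interval of 0.27 to 3.47, which did not pass the test after adjustment over all genes (edgeR adjusted p = 0.139; 7.45% of genes called). It passed when only the 2 groups were fitted, with a log2 fold change of 1.84 (edgeR adjusted p = 0.0179). That fit called 1998 genes, against 1127 in the fit of all groups. As attached, the same step gave a log2 fold change of -3.09 (edgeR adjusted p = 0.00541; 38.7% of genes called), and -3.95 without its library 12, at 143.3 CPM. Over the whole course from 20-25 to 45 d the log2 fold change in F39 was 4.97 by library number (SE 0.88, edgeR adjusted p = 4.42e-04; 31.7% of genes called), which is 31.4-fold. As attached it was 0.010 (95% interval -1.54 to 1.56, edgeR adjusted p = 1; 0.185% of genes called), and -0.82 without library 12.

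In TTDV fruit CmNAC-NOR rose as well, with the called step at libraries 16, 17 and 18. At 20-25 d, by library number, it had 45.3, 34.9 and 143.3 CPM. At 30-35 d it had 100.6, 169.8 and 30.6 CPM, and at 40 d it had 965.1, 1660 and 887.8 CPM. At 45 d, where number and attachment agree, it had 1489, 2892 and 2758 CPM. The 2 younger stages overlapped, all libraries of the 2 later stages lay above them, and the ranges at 40 and 45 d overlapped through 1 library each.

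By library number the called step in TTDV was that from 30-35 to 40 d. The means were 1171 ± 425 CPM at 40 d and 100.3 ± 69.6 CPM at 30-35 d (SD, n = 3 each). The log2 fold change of 3.47 (SE 0.82, edgeR adjusted p = 0.00508; 26.2% of genes called) was 11.05-fold, with a 95% interval of 3.39 to 36.0-fold. As attached, the same libraries are the step from 20-25 to 30-35 d, so that the same result stands 1 stage earlier there. Leaving out 1 library at a time gave log2 fold changes of 2.97, without replicate 3 of 30-35 d, to 4.02, without replicate 2 of 30-35 d, and the call was kept in all 6 refits.

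The neighbouring TTDV steps did not pass. From 20-25 to 30-35 d by number the log2 fold change was 0.49 (95% interval -1.06 to 2.05, edgeR adjusted p = 0.835; 0.284% of genes called), and without replicate 2 of 30-35 d it was -0.14. From 40 to 45 d by number it was 0.95 (95% interval -0.61 to 2.51, edgeR adjusted p = 0.543; 1.86% of genes called). As attached, the step from 30-35 to 40 d gave 1.00 (95% interval -0.56 to 2.57, edgeR adjusted p = 0.50; 2.79% of genes called) and that from 40 to 45 d gave -0.057 (95% interval -1.60 to 1.49, edgeR adjusted p = 1; 0.297% of genes called).

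Over longer intervals the rise in TTDV was called with either assignment. From 20-25 to 40 d the log2 fold change was 3.96 by number (SE 0.84, edgeR adjusted p = 0.00146; 35.1% of genes called) and 4.47 as attached (SE 0.86, edgeR adjusted p = 5.93e-04; 36% of genes called). Without 1 library it reached 4.74 by number, where library 12 of 20-25 d, at 143.3 CPM, was left out, and 5.06 as attached, where library 14 was. From 20-25 to 45 d it was 4.91 by number (SE 0.88, edgeR adjusted p = 2.65e-04; 40.1% of genes called) and 4.41 as attached (SE 0.86, edgeR adjusted p = 7.08e-04; 35% of genes called). Without library 12 the value by number was 5.70. The mean at 45 d was 2380 ± 774 CPM, against 74.5 ± 59.8 CPM at 20-25 d by number (SD, n = 3 each).

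**Figure D2:**
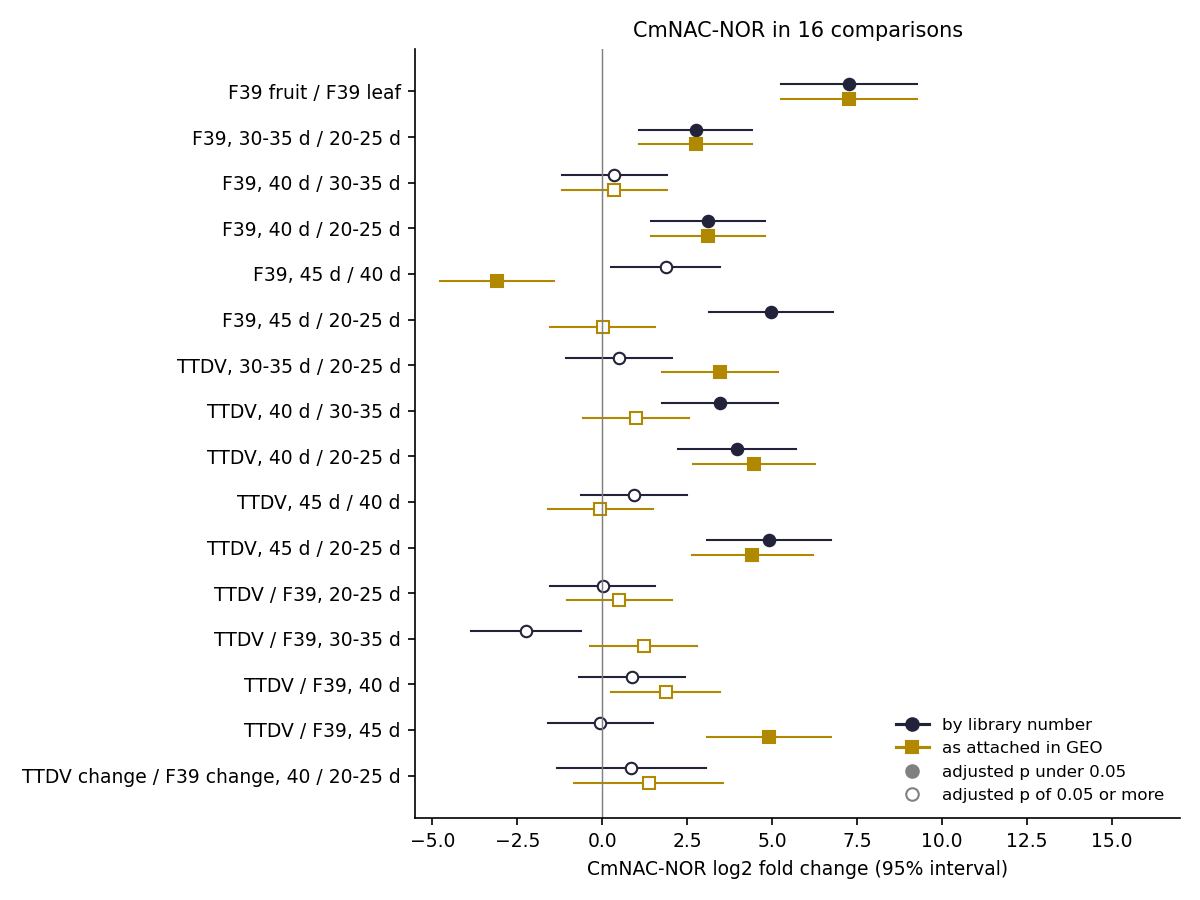
Log2 fold changes of CmNAC-NOR with 95% intervals (x axis) in the 16 comparisons tested (rows, first-named group over second), by library number (circles) and as attached in GEO (squares). Filled symbols have an edgeR adjusted p under 0.05: 7 comparisons by number and 8 as attached, and 4 comparisons hold the same libraries both ways.

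At equal stage CmNAC-NOR passed the test between the cultivars in none of the 4 comparisons by library number. At 20-25 d TTDV had 74.5 ± 59.8 CPM and F39 had 80.1 ± 26.5 CPM (SD, n = 3 each). The log2 fold change of TTDV over F39 was 0.010 (95% interval -1.54 to 1.56, edgeR adjusted p = 1; 0.185% of genes called), and it was -0.82 without TTDV replicate 3. At 45 d TTDV had 2380 ± 774 CPM and F39 had 2498 ± 557 CPM (SD, n = 3 each). The fold change was -0.057 on the log2 scale (95% interval -1.60 to 1.49, edgeR adjusted p = 1; 0.297% of genes called). Each of these intervals still allows a 2.81-fold difference or more in either direction.

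By library number, the log2 fold change farthest from 0 among the 4 stages was that at 30-35 d. TTDV had 100.3 ± 69.6 CPM and F39 had 499.9 ± 345.9 CPM (SD, n = 3 each), and TTDV library 14, at 169.8 CPM, lay above F39 library 4, at 138.2 CPM. The log2 fold change of -2.24 (95% interval -3.86 to -0.62) gave an edgeR adjusted p of 0.0751, with 8.52% of genes called. It passed without F39 replicate 1, which is library 4, at -2.64 (edgeR adjusted p = 0.0221), and with DESeq2 at -2.13 (adjusted p = 0.0286). These fits called 2687 and 2212 genes, against 1289 in the edgeR fit of all libraries. With only the 2 groups fitted, 0 genes were called. At 40 d TTDV had 1171 ± 425 CPM and F39 had 574.4 ± 75.0 CPM (SD, n = 3 each). All 3 TTDV libraries lay above the 3 of F39. The log2 fold change of 0.86 (95% interval -0.69 to 2.42) did not pass (edgeR adjusted p = 0.738, with 0.185% of genes called).

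As attached in GEO the cultivars stood otherwise. TTDV then had 100.3 ± 69.6 CPM at 20-25 d, 1171 ± 425 CPM at 30-35 d and 2498 ± 557 CPM at 40 d (SD, n = 3 each). F39 kept its means at these stages. The log2 fold change of TTDV over F39 was 0.50 at 20-25 d (edgeR adjusted p = 0.904; 0.218% of genes called; -0.10 without library 14), 1.22 at 30-35 d (edgeR adjusted p = 0.389; 4.34% of genes called) and 1.87 at 40 d (edgeR adjusted p = 0.139; 7.45% of genes called). At 45 d it was 4.91 (edgeR adjusted p = 2.65e-04; 40.1% of genes called), where TTDV had 2380 ± 774 CPM and F39 had 74.5 ± 59.8 CPM (SD, n = 3 each). These last libraries are the TTDV course from 20-25 to 45 d by number, and without library 12 the value was 5.70. The change from 20-25 to 40 d in TTDV, minus that in F39, was 0.85 on the log2 scale by number (95% interval -1.34 to 3.05, edgeR adjusted p = 0.86). Without 1 library it ran from 0.39 to 1.62, with the highest value in the fit without library 12, and passed in no refit. In that comparison edgeR called 0% of genes, with 1414 genes at an unadjusted p under 0.05 and 117 called by DESeq2. As attached it was 1.36 (95% interval -0.84 to 3.56, edgeR adjusted p = 0.507; 4.82% of genes called).

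Ordered by mean level, CmNAC-NOR by library number ran from F39 leaf (1.06 ± 1.31 CPM) through TTDV 20-25 d, F39 20-25 d and TTDV 30-35 d to F39 30-35 d, F39 40 d, TTDV 40 d, TTDV 45 d and F39 45 d (SD, n = 3 each). Neighbours in this order had separate ranges only between leaf and TTDV 20-25 d and between F39 40 d and TTDV 40 d; the other 6 pairs overlapped. As attached, the same 9 sets of libraries keep this order and carry the names F39 leaf, F39 45 d, F39 20-25 d, TTDV 20-25 d, F39 30-35 d, F39 40 d, TTDV 30-35 d, TTDV 45 d and TTDV 40 d. Over the 24 fruit libraries, without regard to groups, the widest relative gap lay between 169.8 and 501.9 CPM, with 10 libraries below it and 14 above. The spread within groups, by number, was also uneven. The highest library exceeded the lowest by 4.10-fold in TTDV and 1.98-fold in F39 at 20-25 d, by 5.55-fold and 5.99-fold at 30-35 d, by 1.87-fold and 1.298-fold at 40 d, and by 1.94-fold and 1.58-fold at 45 d. The biological coefficient of variation of CmNAC-NOR over all groups was 0.616, against 0.497 for genes at its level, and 61.9% of genes had a lower value.

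The level of CmNAC-NOR was set beside a measure of the rest of the transcriptome, over 10194 genes without either regulator. This was the position of each fruit library on the line between the F39 means at 20-25 d (0) and 40 d (1). Changes that lie off this line do not move a library. In F39 at 30-35 d the library at 138.2 CPM stood at position 0.177, that at 534.1 CPM at 0.954 and that at 827.5 CPM at 0.561. The library with the most CmNAC-NOR was thus not the one farthest along. F39 at 40 d lay between 0.825 and 1.024, at 501.9 to 651.7 CPM. Libraries 59, 60 and 61, F39 45 d by number, lay between 0.831 and 0.896, inside that span, at 1913 to 3022 CPM. TTDV at 45 d lay between 0.732 and 0.895 at 1489 to 2892 CPM. Libraries 10 to 12, TTDV 20-25 d by number and F39 45 d as attached, lay between -0.052 and 0.016 at 34.9 to 143.3 CPM. Libraries 13 to 15, attached to TTDV 20-25 d, lay between 0.063 and 0.134. Those numbered 16 to 18, attached to TTDV 30-35 d, lay between 0.690 and 0.922. Which assignment is right was not tested. Among F39 40 d, F39 45 d and TTDV 45 d, by number, CmNAC-NOR differed severalfold at overlapping positions. Such overlap does not show that the rest of the transcriptome was alike, because changes off the line are not seen. F39 45 over 40 d by number called 7.45% of genes.

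**Figure D3:**
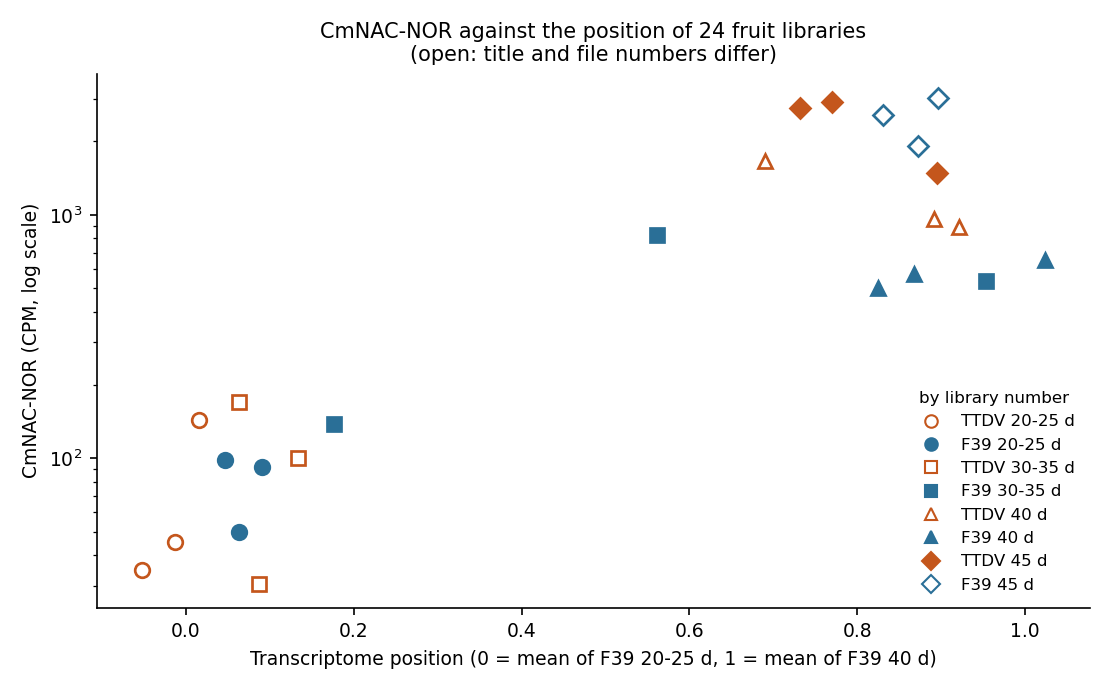
CmNAC-NOR in CPM (y, log axis) against transcriptome position (x; 0 is the mean of F39 20-25 d and 1 that of F39 40 d) for 24 fruit libraries, with colour for cultivar and shape for stage by library number; open symbols mark libraries whose numbers differ. Libraries left of position 0.2 hold 30.6 to 169.8 CPM, and to the right of 0.5 CmNAC-NOR spans 501.9 to 3022 CPM at positions that overlap.

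Genes with the course most like that of CmNAC-NOR were found by Pearson correlation of log2(CPM + 1), a measure that needs no assignment of files to groups. The libraries share stage and depth, so that r is a description only. Over the 24 fruit libraries and 10194 other genes, MELO3C005811.2 was most like it (r = 0.962), followed by MELO3C009918.2 (r = 0.9496) and MELO3C003441.2 (r = 0.946). MELO3C005811.2 averaged 806.1 CPM at 40 d and 108.1 CPM at 30-35 d in TTDV by number, and 15.7 CPM in leaf. The means of MELO3C003441.2 at 45 d by number were 1445 CPM for TTDV and 1791 CPM for F39, against 2.17 CPM for leaf. In all, 55 genes had an r above 0.9 and 55 had an r below -0.9. The most opposite courses were those of MELO3C021766.2 (r = -0.940) and MELO3C021379.2 (r = -0.936). At 45 d by number the means of MELO3C021766.2 were 1.24 CPM for TTDV and 1.73 CPM for F39, and at 20-25 d they were 214.7 CPM for TTDV and 276.9 CPM for F39.

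With leaf included, over 27 libraries and 10471 other genes, the most alike were MELO3C026514.2 (r = 0.9698), MELO3C005811.2 (r = 0.967) and MELO3C008314.2 (r = 0.966). MELO3C008314.2 had no count in leaf and 24.7 to 471.0 CPM in fruit. The most opposite were MELO3C010860.2 (r = -0.947) and MELO3C026410.2 (r = -0.937), which had 28.0 and 168.4 CPM in leaf, each above its highest fruit library. MELO3C005811.2 alone was among the 3 most alike both with and without leaf. None of these IDs has a name in the files.

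**Figure D4:**
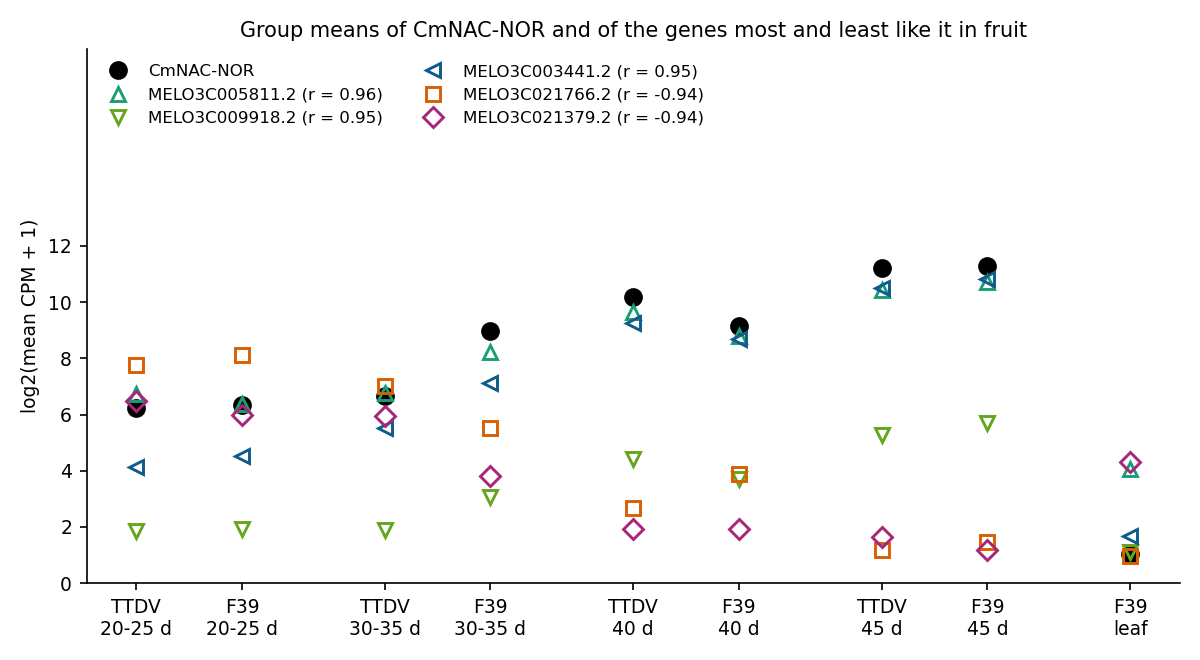
Group means, as log2(mean CPM + 1), of CmNAC-NOR (filled circles) and of the 3 most and 2 least similar genes over the 24 fruit libraries, in groups by library number. MELO3C005811.2, MELO3C009918.2 and MELO3C003441.2 climb with CmNAC-NOR while MELO3C021766.2 and MELO3C021379.2 decline; heights are not per transcript length and compare groups, not genes.

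CmCNR was at the limit of detection everywhere. It drew 30 counts in all, out of 322067761 over the 27 libraries, and had no count in 15 of them. The highest count was 5, in F39 at 30-35 d, and the highest level was 0.403 CPM, in F39 at 40 d. Pooled over all libraries its level was 0.0931 CPM, with an exact Poisson 95% interval of 0.0628 to 0.133 CPM. Intervals and limits of this kind cover counting error only, since reads copied by PCR are not independent molecules.

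The few counts fell in fruit. In TTDV, by library number, CmCNR had 0, 0 and 1 counts at 20-25 d, 0, 4 and 0 at 30-35 d, 2, 1 and 0 at 40 d, and 0, 0 and 0 at 45 d. In F39 it had 0, 4 and 3 counts at 20-25 d, 5, 0 and 2 at 30-35 d, 3, 2 and 0 at 40 d, and, by number, 1, 0 and 2 at 45 d. As attached in GEO, TTDV had 0, 4 and 0 counts at 20-25 d, 2, 1 and 0 at 30-35 d and 1, 0 and 2 at 40 d, and F39 had 0, 0 and 1 at 45 d. Leaf had no count in 3 libraries, which allows up to 0.0618 CPM over the group (upper end of the exact Poisson 95% interval). TTDV at 45 d had none, which allows up to 0.155 CPM. Every fruit group except TTDV at 45 d held a library with a count and every one also held a library without.

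**Figure D5:**
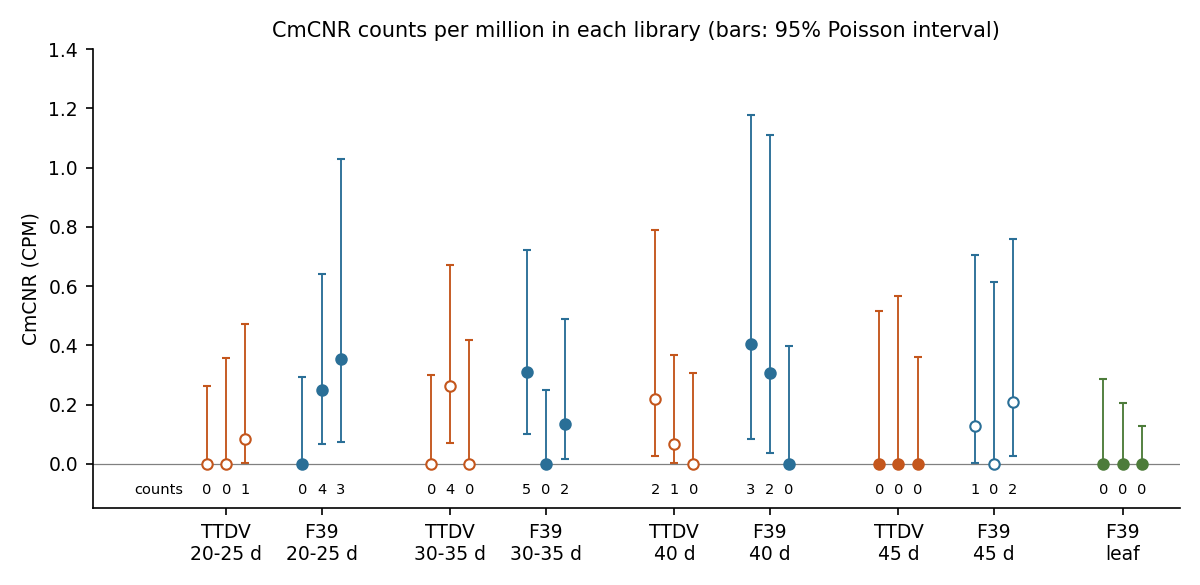
CmCNR in CPM in each of 27 libraries, in groups by library number, with exact Poisson 95% intervals as bars and the count of each library printed under its point; open points mark the 12 libraries whose title and file numbers differ. No library exceeds 5 counts or 0.403 CPM, and the intervals of all fruit groups overlap.

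With so few counts CmCNR was removed by the filter on low counts and had no test among the 15130 genes. Fitted without the filter, over 21700 genes and by library number only, its fruit against leaf log2 fold change of 4.13 had an edgeR adjusted p of 0.109 and a 95% interval of 0.05 to 8.21, and depends on how a leaf group at 0 is treated. Its lowest edgeR adjusted p among the other 15 comparisons was 0.531. No change of CmCNR between stages, or between cultivars at a single stage, passed at this depth, and the data do not show that it was absent. The log2 fold change of TTDV over F39 was negative at each stage, from -3.37 at 45 d to -0.503 at 30-35 d. Each 95% interval included 0, with -7.77 to 1.02 at 45 d. Whether the cultivars differed over all fruit libraries together was not tested. The gene most like CmCNR over 27 libraries, MELO3C001521.2, had an r of only 0.74, in counts too sparse for the value to count as a finding.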

How the data were processed

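RNA-seq of melon leaf and fruit was used as the authors deposited it, in a file for each library that holds raw counts of each gene. The submitters' processing notes list STAR 2.5.4b and edgeR 3.12.1 without saying which step each did. The counting program, genome build, strand setting and handling of multi-mapped reads were not given in the sources used here, so counts of overlapping genes or close NAC or SBP-box relatives are uncertain. Identical files were looked for, and 0 pairs were found.

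Libraries were grouped by title. Counts were fitted in edgeR 4.0.16 (R 4.3.3): filterByExpr (15130 of 25200 genes kept), TMM, 1 mean per group over 27 libraries, robust quasi-likelihood F-test, Benjamini-Hochberg threshold 0.05 over all genes tested. The fruit mean took F39 at 20-25, 30-35 and 40 d. The script was tested on simulated data. CPM divides by the library total. Similar genes needed a mean of 5 CPM, and the 3 highest and 2 lowest by Pearson r were named. Position used log2(CPM + 1), each library left out of its own group mean. Other ripening genes were not analysed here: the reference table matched 0 IDs. Alternatives included DESeq2 1.42.0 and leaving out each library. Members, lists and tests were chosen with earlier results of these data known.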

Additional observations from a re-analysis of the deposited data

How the results depend on the processing

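CmNAC-NOR was refitted 113 times with another setting or other libraries and 108 times without 1 library, and 98 and 96 of these kept its direction and its side of the threshold. The assignment of files changed most. As attached in GEO its log2 fold change was -3.09 for F39 45 over 40 d, 0.010 for F39 45 over 20-25 d, 3.47 for TTDV 30-35 over 20-25 d, 1.00 for TTDV 40 over 30-35 d, -0.057 for TTDV 45 over 40 d, and 1.22 and 4.91 for TTDV over F39 at 30-35 and 45 d; other libraries enter these comparisons. The call for F39 30-35 over 20-25 d was lost with median-of-ratios scaling (2.65), library totals only (2.64), no filter (2.76), only the groups compared (2.77) and only the 15 libraries whose numbers agree (2.76); the cause was not tested. Calls were gained for F39 45 over 40 d with only the groups compared (1.84) and for TTDV over F39 at 30-35 d with DESeq2 (-2.13). Those fits called 1998 and 2212 genes, against 1127 and 1289 before. With library totals only, TTDV over F39 at 20-25 d was -0.11, and F39 fruit over leaf was 8.11, against 7.27 with TMM. In CPM of TMM-scaled library sizes the means at 20-25 d were 70.8 for TTDV and 70.3 for F39 by number, so that this pair changed order. On that scale F39 40 d library 8, at 732.4, lay above the 30-35 d range of 122.6 to 686.3.

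Without 1 library, values ran from 2.35 to 3.16 for F39 30-35 over 20-25 d, from -0.043 to 0.77 for F39 40 over 30-35 d, from -0.14 to 1.32 for TTDV 30-35 over 20-25 d, and from -0.82 to 0.40, -2.79 to -1.73 and -0.23 to 0.17 for TTDV over F39 at 20-25, 30-35 and 45 d. The number of genes called over the transcriptome moved by more than 1.5 times in 85 of 221 refits; for F39 30-35 over 20-25 d it ran from 0 to 2221, against 888. Spearman correlation kept 2 of the 3 genes most like CmNAC-NOR in fruit and 1 of 3 with leaf. CmCNR had a value only without the filter, and its depth of 30 counts limits every statement on it. With files as attached, leaving out 1 library kept the call in each refit of 7 of the 8 comparisons called, the exception being F39 30-35 over 20-25 d. No paired analysis was possible because the titles give no replicate number shared between groups.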
